A study of Mus musculus with 21 samples.

Results

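RNA of single mouse CD8 T cells kept for 3 days with 50 IU/mL IL-2v was compared with RNA of cells kept for the same time without added cytokine. The comparison takes all cells of those 2 libraries of the 21 in the series, which is 9268 of 106458 cells: 4812 with IL-2v and 4456 without cytokine. Both libraries hold OT1 cells, which carry a transgenic receptor for an ovalbumin peptide shown by MHC class I. In both, naive cells were activated on day 0 by bead-bound antibodies against CD3 and CD28, so bead activation is shared and the cytokine is the labelled difference. The label of the treated library calls the cytokine a mutant IL-2, abbreviated IL-2bg, and the titles and design call it IL-2v. The extraction text describes sorted tumour-infiltrating CD44+CD45.1+ CD8 cells, whereas the growth text describes culture; the libraries are taken here as cultured cells. The number of mice and cultures behind each library is not stated in the labels.

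Interleukin-2 signals through a receptor of alpha, beta and gamma chains, encoded by Il2ra, Il2rb and Il2rg. The beta and gamma chains carry the kinases JAK1 and JAK3, which activate the transcription factor STAT5, and the same receptor also feeds the PI3K, mTOR and MAP kinase routes. In activated CD8 T cells, IL-2 is known for sustaining growth, division and survival, and for moving cells away from the quiescent, recirculating naive state. The alpha chain raises the affinity for IL-2 and is itself a STAT5 target. This background concerns unmodified IL-2, and how the mutant IL-2v binds these chains was not measured here.

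Each condition had 1 library. There was thus no replicate check, no statistical test was run and no p-value is given; a difference between the libraries is a difference between 2 samples. Levels are counts of unique molecular identifiers (UMIs, tags that mark single captured RNA molecules) summed over cells and scaled by the library's total to CPM, the standard unit for a gene's share of its library. Intervals in parentheses are exact 95% Poisson intervals for CPM and Clopper-Pearson intervals for shares of cells, and cover counting error only. Gene differences are on the log2(CPM + 1) scale, IL-2v minus no cytokine, which shrinks differences between weakly expressed genes. Genes at 20 CPM or more in either library entered the comparison and are termed tested, and a gene is called higher or lower where it differed at least 2-fold.

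The libraries were of like depth. Summed counts were 23617485 UMIs with IL-2v and 22249358 without cytokine, with medians of 4537 and 4551 UMIs per cell. Cells with IL-2v held more genes, at a median of 1840.5 against 1623, and a smaller share of UMIs from cytosolic ribosomal protein genes, at 29.5% against 34.1%. Most cells met the cell label: 99.8% and 99.96% of cells had UMIs of at least 2 of 8 T cell markers, and Cd8b1 was seen in 78.3% and 88.1%. Of the CD4 lineage markers, Cd4 was seen in 0.956% and 0.808% and Zbtb7b in 7.23% and 5.54%. Of 6 B cell markers 3 were at 0 in both libraries, including Ms4a1 and Pax5, and of 7 myeloid markers 4, including Lyz2 and Csf1r. The summed level of the B cell markers was 9.95 CPM with IL-2v and 15.2 without, that of the myeloid markers 109 and 119.6, nearly all of it Cst3. Dendritic cell markers summed to 52.6 and 47.3 CPM, mostly H2-Ab1, seen in 21.4% and 18.1% of cells, with Flt3 at 0 in both. NK cell markers summed to 0.466 and 0 CPM. The libraries shared 7 cell barcodes, 0.145% of the cells with IL-2v.

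More genes were higher with IL-2v than lower: among 6069 tested, 475 (7.83%) were called higher and 106 (1.75%) lower. A difference of at least 4-fold was reached by 41 and 14 genes, and one of at least 8-fold by 6 and 3. The balance of the counts depended on the scaling. The median gene was 0.21 higher on the log2 scale after scaling to library totals. With TMM scaling, which trims the most extreme genes before setting the scale and moved that median to 0.018, 295 genes were higher and 201 lower. Of the genes called over totals, 37 higher and 7 lower ones share at least 20% of their sequence near the 3′ end with another gene, and 32 and 9 overlap another gene, so their counts are uncertain.

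**Figure D1:**
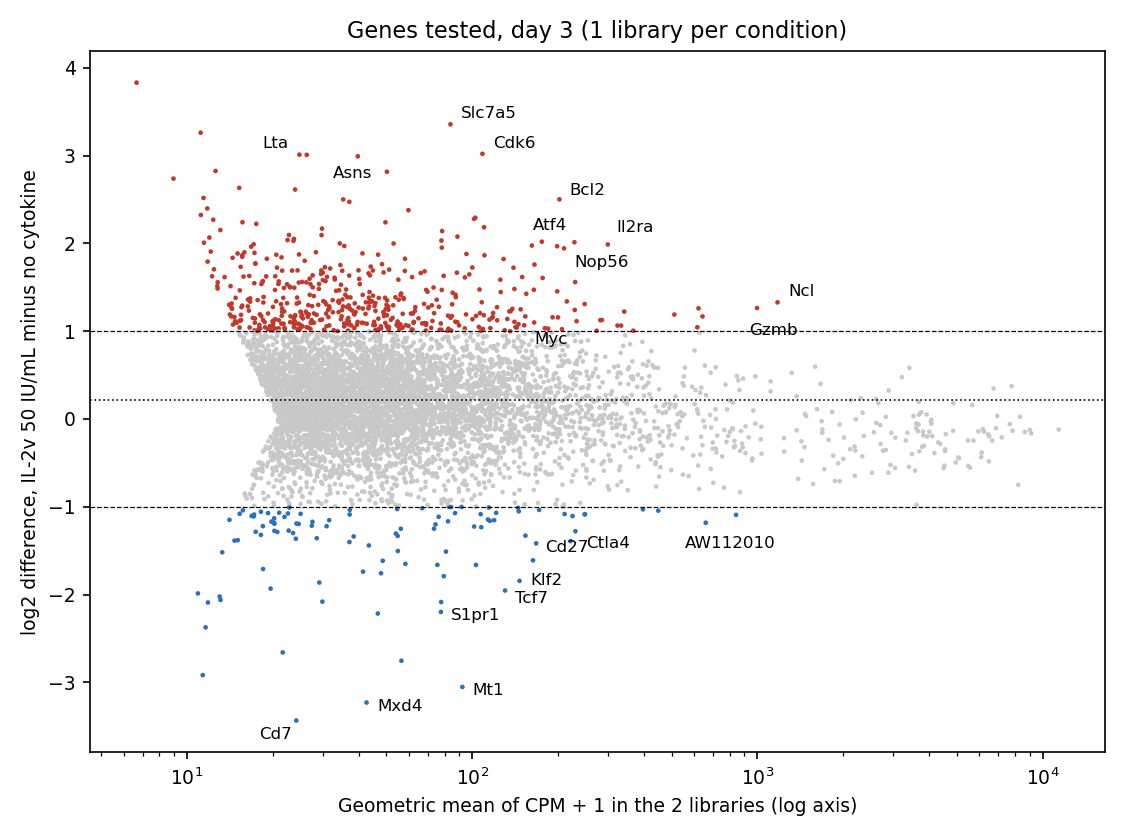
Each point is 1 of 6069 tested genes; the horizontal axis (log) is the geometric mean of CPM + 1 in the libraries and the vertical axis the log2 difference, IL-2v minus no cytokine. Red points are the 475 genes at least 2-fold higher, blue points the 106 at least 2-fold lower; dashed lines mark 2-fold and the dotted line the median of all genes at 0.21.

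Most tested genes in a list of known STAT5 targets were higher with IL-2v. The list was chosen with earlier results of these data known, and it leaves out Il2ra, which is described below with the receptor chains. Of 15 tested among 16 in the list, 13 were at least 2-fold higher and none lower, with a median log2 difference of 1.56 beside 0.21 over all genes. The filter bears on this count: 6 of the 13 were below 20 CPM without cytokine, as were 219 of all 475 higher genes, and entered through the IL-2v library alone. Cish, a STAT5-induced inhibitor of cytokine signalling, stood at 8.27 CPM (7.12 to 9.55) without cytokine and 73.7 CPM (70.3 to 77.2) with IL-2v, a log2 difference of 3.01. Lta, which encodes the cytokine lymphotoxin alpha, stood at 7.73 CPM (6.62 to 8.98) without cytokine and 69.4 CPM (66.1 to 72.9) with IL-2v, a log2 difference of 3.01. The survival gene Bcl2 stood at 84.0 CPM (80.2 to 87.9) without cytokine and 481 CPM (472 to 489.5) with IL-2v, a log2 difference of 2.50. The intervals of these genes cover counting error only, and Cish, Lta and Bcl2 were named for their large differences. In GENCODE vM21 (GRCm38) Cish lies at chr9:107296026-107302784, Lta at chr17:35203165-35205351, Bcl2 at chr1:106538178-106714274 and Cdk6 at chr5:3341485-3531008, each a protein-coding gene. Cdk6, a kinase that drives entry into the cell cycle with D cyclins, stood at 37.1 CPM (34.6 to 39.7) without cytokine and 309 CPM (302 to 316) with IL-2v, a log2 difference of 3.02. Other members called were Osm (3.78 and 26.4 CPM), Gadd45g (7.10 and 36.8 CPM), Socs2 (37.0 and 121 CPM), Bcl2l1, which encodes BCL-XL (14.3 and 44.0 CPM), the kinases Pim1 (192 and 420.4 CPM), Pim2 (119 and 328 CPM) and Pim3 (7.42 and 23.03 CPM), Xbp1 (45.9 and 119 CPM) and Ccnd2 (229 and 480.5 CPM), each given without and then with IL-2v. The remaining tested members, Socs1 and Ccnd3, had log2 differences of 0.70 and 0.54.

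Lta is shown for its sequence because it was the single member of the 12 target genes found among the RefSeq promoters to hold the STAT5 motif TTCNNNGAA, read on both strands, in the 250 bases before its start. It holds 2 matches, in capitals, 152 and 16 bases before the start:
Lta, chr17:35205352-35205601, minus strand: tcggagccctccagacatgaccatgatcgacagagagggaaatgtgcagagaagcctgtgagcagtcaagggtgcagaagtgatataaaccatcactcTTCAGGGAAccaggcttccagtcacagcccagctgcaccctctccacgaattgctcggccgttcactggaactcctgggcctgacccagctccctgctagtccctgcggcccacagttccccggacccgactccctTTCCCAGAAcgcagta
The coordinates are those of GRCm38.p6. Over the 4881 tested genes with a promoter in the table, 7.15% held the motif in this window, against 9.59% of the 386 higher genes found and 5.26% of the 76 lower ones. A match describes letters, and no match says only that they are not in this window; Cish, for example, had none.

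Among the receptor chains, kinases and STATs themselves, 1 of 13 tested genes was called, near the 7.83% called higher over all genes. The called gene was Il2ra, at 149 CPM (144 to 154) without cytokine and 594 CPM (585 to 604) with IL-2v, a log2 difference of 1.99. Il2rb stood at 355 and 463 CPM and Il2rg at 190.3 and 156 CPM, without and then with IL-2v, and neither was called. After thinning each cell to 2000 UMIs, which sets depth equal, Il2ra was seen in 23.5% of cells without cytokine (22.3 to 24.8) and 63.3% with IL-2v (61.9 to 64.7). The same share in naive cells, which do not carry the alpha chain, was 0.872%; unthinned shares were 43.7% and 83.3%. Bcl2 was seen in 15.0% (13.9 to 16.1) and 61.1% (59.6 to 62.5) of thinned cells and Cdk6 in 6.53% (5.802 to 7.31) and 45.2% (43.8 to 46.7); these, with Il2ra, Nop56 and Tuba1b, were the genes whose share differed most on the higher side. Tuba1b, a tubulin gene, shares 57.6% of its sequence near the 3′ end with Tuba1c. Its share was 41.1% and 77.3% while its log2 difference was 0.98.

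Uptake and synthesis of amino acids held the gene with the highest log2 difference by the naming rule. Slc7a5, the light chain of the large neutral amino acid transporter LAT1, stood at 25.2 CPM (23.2 to 27.4) without cytokine and 268 CPM (261 to 274) with IL-2v, a log2 difference of 3.36. The gene lies at chr8:121881150-121907694 on the minus strand. Slc3a2, the heavy chain of the same transporter, stood at 54.2 and 172 CPM, without and then with IL-2v. Slc7a1, which imports arginine and lysine, stood at 21.8 and 107 CPM and Slc1a5, a glutamine transporter, at 75.3 and 207 CPM. These were the 4 called among 9 tested transporters, none of which was called lower, and the median of the list was 0.98. Of 17 tested genes of serine synthesis, one-carbon metabolism and the ATF4 response, 12 were higher and none lower, with a median of 1.82, and 7 of the 12 were below 20 CPM without cytokine. Atf4, the transcription factor that answers amino acid shortage, stood at 113 CPM (108 to 117) without cytokine and 458 CPM (449 to 467) with IL-2v, a log2 difference of 2.01. Asns, asparagine synthetase, stood at 17.9 CPM (16.2 to 19.8) without cytokine and 132 CPM (128 to 137) with IL-2v, a log2 difference of 2.82. Trib3, a pseudokinase induced through ATF4, stood at 14.7 and 86.5 CPM, Shmt2, which splits serine in mitochondria, at 50.6 and 234 CPM, and Psat1, an enzyme of serine synthesis, at 67.5 and 241 CPM. Phgdh, the first enzyme of that pathway, was at 167 and 330.2 CPM and just under 2-fold, and Ddit4, an inhibitor of mTOR, was at 119 and 84.6 CPM with a log2 difference of −0.49.

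Enzymes that load amino acids onto tRNAs were likewise higher: 13 of 20 tested aminoacyl-tRNA synthetases were called, none was lower and the median was 1.27. The largest differences were those of Iars (25.5 and 105 CPM), Nars (80.6 and 320.3 CPM), Lars (38.8 and 153 CPM) and Cars (20.4 and 78.3 CPM), which load isoleucine, asparagine, leucine and cysteine. The glutamine enzyme Qars stood at 67.8 and 67.5 CPM. The promoter of Gars, the glycine enzyme (93.4 and 253 CPM), is shown because it holds the ATF4 motif TGATGNAA, read on both strands, as do those of Aars and Tars among 12 synthetase genes with a promoter in the table:
Gars, chr6:55037751-55038000, plus strand: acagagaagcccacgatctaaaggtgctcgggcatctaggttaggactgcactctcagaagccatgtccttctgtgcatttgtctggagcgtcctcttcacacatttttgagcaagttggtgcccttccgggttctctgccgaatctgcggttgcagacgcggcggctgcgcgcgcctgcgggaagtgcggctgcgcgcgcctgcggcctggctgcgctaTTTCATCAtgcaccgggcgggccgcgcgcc
The match, in capitals, begins 30 bases before the start and reads on the opposite strand. The motif was in 2.25% of all promoters of tested genes and in 4.15% of those of the higher genes. It was in 25% of those of the synthetases, which is 3 promoters, and in 1 of 17 (5.88%) of those of the ATF4 list. No lower gene held it among 76.

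By number, genes that build ribosomes gave more higher genes than any other list, while no gene of the ribosomal proteins themselves was called. The shorter STAT5 and ATF4 lists had larger medians, at 1.56 and 1.82. Of 47 tested ribosome biogenesis genes, 39 were called higher and none lower, and the median was 1.44; the 47 are the whole list, and 16 of the 39 were below 20 CPM without cytokine. Nolc1, a nucleolar phosphoprotein, stood at 45.3 CPM (42.6 to 48.2) without cytokine and 226 CPM (220.2 to 232) with IL-2v, a log2 difference of 2.29. Gnl3, which encodes nucleostemin, stood at 45.1 CPM (42.3 to 48.0) without cytokine and 223 CPM (217 to 229) with IL-2v, a log2 difference of 2.28. Nop56, a core protein of box C/D small nucleolar ribonucleoproteins, stood at 106 and 411 CPM and was seen in 16.7% and 54.9% of thinned cells; 27.1% of its sequence near the 3′ end is shared with another annotated gene. Nucleolin (Ncl), the most abundant of the called members, stood at 741 and 1864 CPM, and Polr1b, a subunit of RNA polymerase I, at 4.72 and 22.02 CPM. The 8 members not called included nucleophosmin (Npm1) at 2164 and 1869 CPM and the RNA polymerase I and III subunit Polr1d at 291 and 246 CPM. Of 81 tested cytosolic ribosomal protein genes none was called and the median was −0.17, or −0.36 with TMM scaling.

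Genes of MYC and of polyamine synthesis were split. The list's median was 0.44, or 0.11 with TMM scaling and −0.18 when ribosomal protein and mitochondrial genes were left out of the totals. Calls close to 2-fold, such as that of Myc, depend on the scaling. Myc, whose product drives ribosome biogenesis and cell growth, stood at 104 CPM (99.98 to 109) without cytokine and 219 CPM (213 to 225) with IL-2v, a log2 difference of 1.07. Srm, spermidine synthase, stood at 25.2 and 135 CPM, Odc1, the first enzyme of polyamine synthesis, at 62.7 and 176 CPM and Azin1, which protects that enzyme, at 41.6 and 90.1 CPM; these 4 of 10 tested genes were higher. Mxd4, which competes with MYC for their common partner MAX, was the single one called lower, at 129.6 CPM (125 to 134) without cytokine and 12.9 CPM (11.5 to 14.4) with IL-2v, a log2 difference of −3.23. Oaz1, the antizyme that leads ODC to degradation, stood at 871 and 648 CPM.

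In lists of precursor synthesis and protein folding a minority of genes was called, whereas over all tested genes 7.83% were higher and 1.75% lower. Of 24 tested nucleotide synthesis genes 10 were higher and none lower (median 0.72), among them Cad (18.0 and 56.3 CPM), which begins pyrimidine synthesis, and the purine genes Gart (30.8 and 94.5 CPM) and Pfas (14.9 and 45.2 CPM). Of 15 fatty acid synthesis genes 4 were higher (median 0.90): Fasn (44.1 and 139 CPM), Fads2, Slc25a1 and Acaca. Of 23 sterol genes 3 were higher, near the share over all genes (median 0.64), among them Hsd17b7 (11.2 and 32.9 CPM) and Lss (22.7 and 56.6 CPM). Of 24 chaperones 8 were higher (median 0.65), led by the mitochondrial chaperones Hspa9 (86.1 and 352 CPM) and Hspd1 (133 and 393 CPM). None of these 4 lists held a gene called lower. Below 20 CPM without cytokine were 4 of the 10 higher nucleotide genes and 1 higher gene in each other list. Of the lists of energy metabolism, that of glycolysis held the most calls, near the shares over all genes. Of 27 glycolysis and hypoxia-response genes, Hk2 (26.4 and 86.2 CPM), the lactate carrier Slc16a1 (25.8 and 66.2 CPM) and the carbonic anhydrase Car12 (4.13 and 26.1 CPM) were higher, Ankrd37 (25.3 and 5.46 CPM) was lower, and the median was 0.08, or −0.10 with TMM scaling. Car12 and Ankrd37 each passed the filter through 1 library alone. Ldha stood at 1295 and 1958 CPM and Aldoa at 2380.3 and 1874 CPM, neither called. Of 71 nuclear oxidative phosphorylation genes 1, Uqcrq, was higher, and of 22 genes of the tricarboxylic acid cycle and 16 of fatty acid oxidation none was called in either direction.

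**Figure D2:**
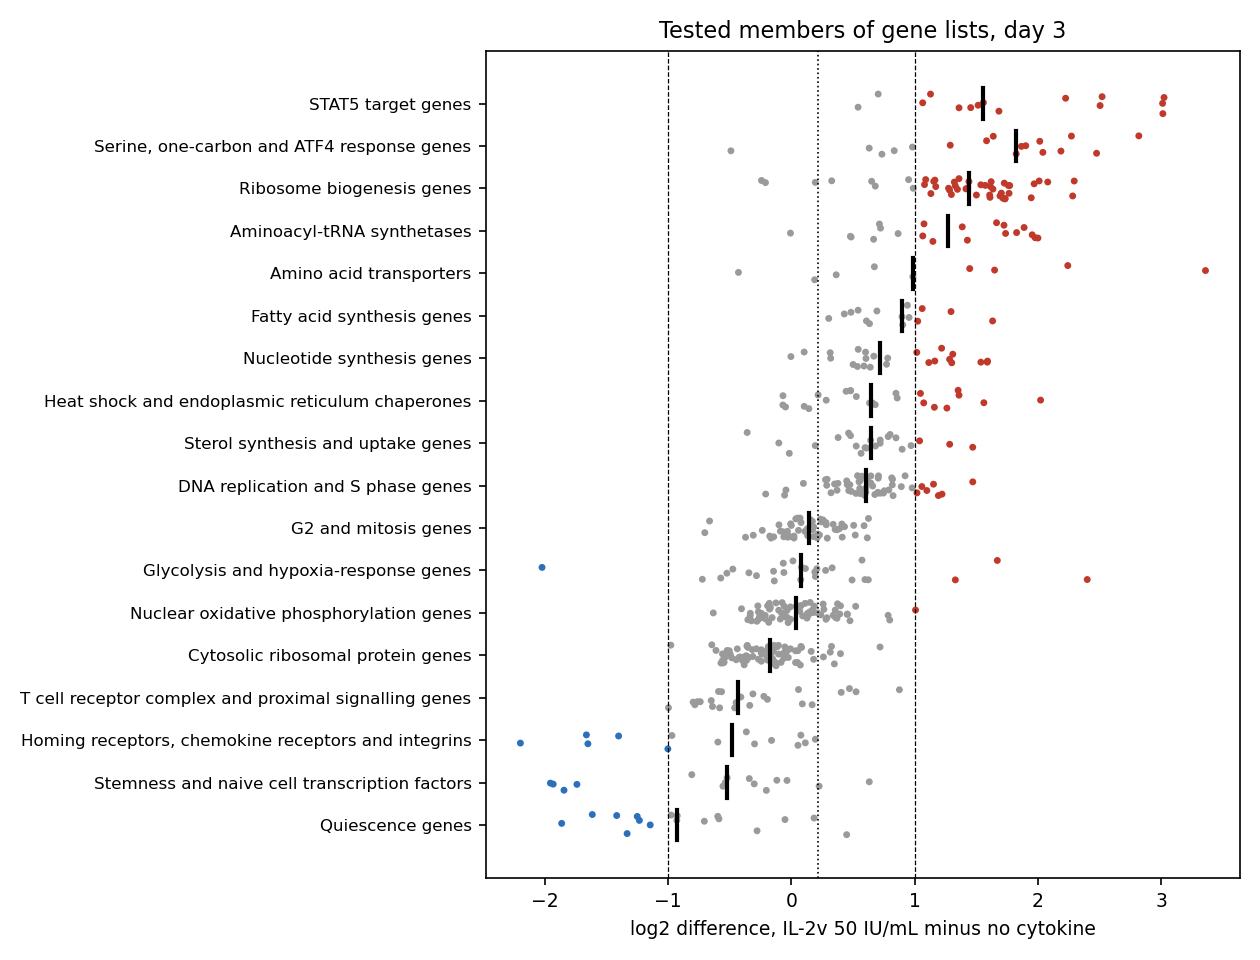
Each point is a tested member of a gene list, placed by its log2 difference, IL-2v minus no cytokine (horizontal axis); black bars are list medians, dashed lines mark 2-fold and the dotted line the median of all genes at 0.21. The STAT5, ATF4, ribosome biogenesis and tRNA synthetase lists lie mostly right of the 2-fold line, and the quiescence list has the lowest median, at −0.93.

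More cells held RNA of cell cycle genes with IL-2v. Mki67 or Top2a, genes expressed from S phase to mitosis, had a UMI in 78.8% of thinned cells with IL-2v (77.5 to 79.9) and in 51.2% without cytokine (49.7 to 52.7). In naive cells, with a median of 3799 UMIs, the same rule marked 2.04% of thinned cells. Unthinned shares were 86.9% and 59.96%. The replication genes Mcm5 or Mcm6 were seen in 58.2% (56.7 to 59.6) and 35.98% (34.5 to 37.4). Summed levels of single cycle genes differed less. Of 54 tested G2 and mitosis genes none reached 2-fold, with a median of 0.14, or −0.05 with TMM scaling; Top2a stood at 581 and 875 CPM and Mki67 at 379 and 460.5 CPM. Of 55 replication and S phase genes 7 were higher and none lower, with a median of 0.60, or 0.42 with TMM scaling: Cdca7 (46.0 and 129 CPM), Exo1, Mcm2 (62.0 and 143 CPM), Mcm10, Ccne2, Ung and Pold2. This is near the share over all genes, and 3 of the 7 were below 20 CPM without cytokine. Of 12 cyclins, kinases, inhibitors and RB family members, Cdk6, Ccnd2, the phosphatase Cdc25a (24.3 and 66.5 CPM) and the inhibitor Cdkn1a (16.7 and 39.5 CPM) were higher. The inhibitor Cdkn1b, which encodes p27 and holds resting T cells in G1, was lower, at 86.0 CPM (82.2 to 89.9) without cytokine and 33.5 CPM (31.2 to 35.95) with IL-2v, a log2 difference of −1.33.

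The spread of these genes over cells differed as well. Counted in cells thinned to 2000 UMIs, the G2 and mitosis list had a median of 9 UMIs without cytokine and 17 with IL-2v. Without cytokine the central 80% of cells ran from 1 to 35 UMIs, and with IL-2v from 6 to 31. The library without cytokine thus held both more cells with few UMIs and more with many: 9.66% of its cells and 4.47% of those with IL-2v had over 35. For the S phase list the range was 1 to 15 without and 5 to 18 with IL-2v. Lists of growth shifted as a whole: ribosome biogenesis had a median of 9 UMIs without and 18 with IL-2v, and 63.6% of cells with IL-2v lay above the 90th percentile of cells without cytokine. For STAT5 targets that share was 69.3% (medians 2 and 6), for the ATF4 list 61.9% (medians 1 and 4). No UMI of the STAT5 list was found in 14.3% of thinned cells without cytokine and in 0.419% with IL-2v. The cells of a library are not replicates, and these shares describe 2 libraries.

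**Figure D3:**
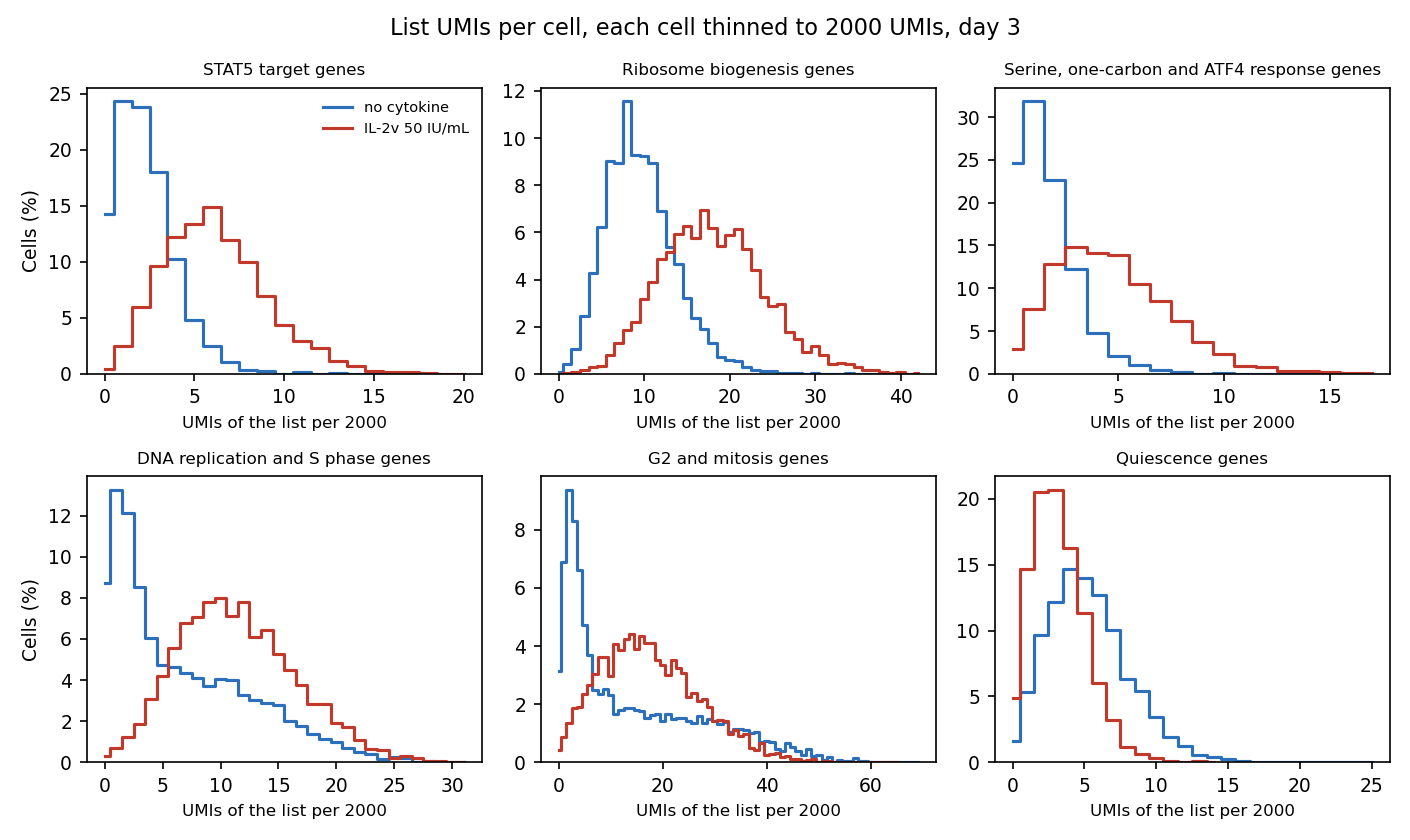
Share of cells (vertical axis, %) by the number of UMIs of a gene list (horizontal axis) after each cell was thinned to 2000 UMIs, without cytokine (blue, 4244 cells) and with 50 IU/mL IL-2v (red, 4539 cells). Without cytokine the S phase and G2 lists pile up at few UMIs with a long tail, whereas with IL-2v they form 1 broad hump; the STAT5, ribosome biogenesis and ATF4 lists are shifted as a whole.

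Since the libraries differed in their share of cells with a Mki67 or Top2a UMI, the comparison was repeated within each class. Cells with no Mki67 or Top2a UMI numbered 631 with IL-2v and 1784 without cytokine, at medians of 3104 and 3780.5 UMIs. Among them, 996 of 5983 tested genes were higher (16.6%) and 229 lower (3.83%); among cells with such a UMI, 352 of 6074 (5.8%) and 74 (1.22%). Of the 475 genes higher over all cells, 440 (92.6%) were also higher in the cells without such a UMI, 342 (72%) in those with one and 316 in both. Of the 106 lower genes, 94, 68 and 60 were. The classes are parts of the same cells that gave the calls, so this overlap is in part built in. Slc7a5 differed by 3.96 in cells without and 3.09 in cells with a UMI, Cdk6 by 3.52 and 2.86, Tcf7 by −2.09 and −1.73. The S phase list had medians of 1.91 and 0.27. Cells without a Mki67 or Top2a UMI are not shown to be outside the cycle: after thinning, 54.4% of them with IL-2v had a UMI of Mcm5 or Mcm6 (50.1 to 58.7), against 16.7% without cytokine (15.0 to 18.6) and 10.3% of all thinned naive cells (9.43 to 11.2). The ribosome biogenesis list had medians of 1.75 and 1.35, the STAT5 list 1.76 and 1.66, and the quiescence list −1.29 and −0.71.

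**Figure D4:**
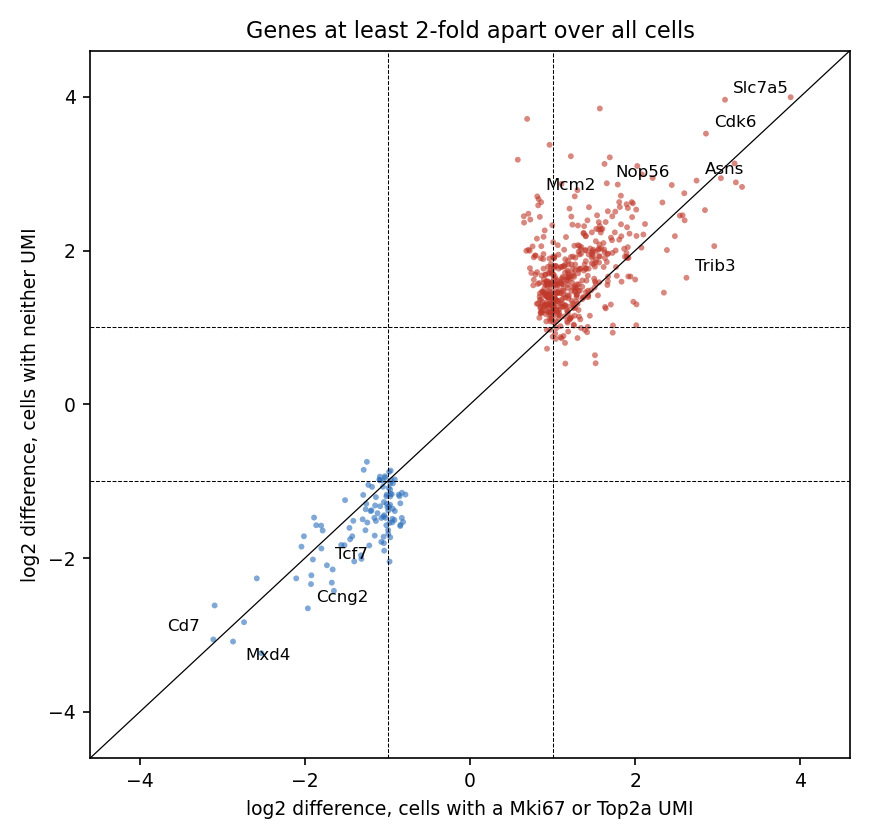
Each point is 1 of the 581 genes at least 2-fold apart over all cells (red higher, blue lower with IL-2v), placed by its log2 difference in cells with a Mki67 or Top2a UMI (horizontal axis) and in cells with neither (vertical axis); dashed lines mark 2-fold and the solid line equal differences. Slc7a5 and Cdk6 are high on both axes, and Mcm2 lies above the line, at 0.81 and 2.70.

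The promoters of Mcm5 (146 and 230.4 CPM) and Mcm6 (163 and 235 CPM), subunits of the replicative helicase used above to mark S phase, are shown with their matches to the E2F motifs TTCCCGC and TTGGCGC, read on both strands and in capitals:
Mcm5, chr8:75109259-75109508, plus strand: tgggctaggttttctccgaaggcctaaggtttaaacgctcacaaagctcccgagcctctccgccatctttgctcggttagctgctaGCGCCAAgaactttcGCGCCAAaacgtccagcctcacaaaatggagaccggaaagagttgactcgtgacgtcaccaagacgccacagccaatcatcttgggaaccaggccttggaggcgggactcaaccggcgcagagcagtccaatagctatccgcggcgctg
Mcm6, chr1:128359706-128359955, minus strand: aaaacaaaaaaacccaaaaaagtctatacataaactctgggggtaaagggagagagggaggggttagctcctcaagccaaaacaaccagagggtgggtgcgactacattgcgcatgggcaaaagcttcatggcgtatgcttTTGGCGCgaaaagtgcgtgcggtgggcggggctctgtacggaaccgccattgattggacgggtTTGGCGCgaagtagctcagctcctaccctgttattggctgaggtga
E2F factors are released ahead of S phase, when CDK4 and CDK6 inactivate the RB proteins. Either motif was in 36.4% of 44 promoters of S phase genes (16 promoters), in 13.6% of those of all tested genes and in 14.5% of those of the higher genes. The matches begin 164 and 149 bases before the start of Mcm5, and 109 and 46 bases before that of Mcm6.

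The lower genes, 1.75% of those tested, included members of the lists of quiescence, naive cell and homing genes. Of the 106 lower genes, 32 were in any gene or marker list used here. Of the same 106 genes, 47 were below 20 CPM with IL-2v and entered through the library without cytokine alone. Of 17 tested quiescence genes 7 were lower and none higher: Ccng2 (54.6 and 14.3 CPM), Btg2 (84.0 and 26.8 CPM), Txnip (273 and 102 CPM), Cdkn1b, Pik3ip1 (85.7 and 35.4 CPM), Slfn2 and Pnrc1. Txnip limits glucose uptake and Pik3ip1 inhibits PI3K. Of 15 tested transcription factors of naive and stem-like cells 4 were lower and none higher, with a median of −0.52. Tcf7, which encodes TCF1, stood at 255.8 CPM (249 to 263) without cytokine and 65.2 CPM (62.0 to 68.6) with IL-2v, a log2 difference of −1.95. Klf2, which keeps T cells in circulation, stood at 277 CPM (269.9 to 284) without cytokine and 76.3 CPM (72.9 to 79.9) with IL-2v, a log2 difference of −1.84. Klf3 (37.4 and 9.06 CPM) and Id3 (74.7 and 21.7 CPM) were the others. Lef1, the partner of TCF1, stood at 217 and 123 CPM, and Foxo1 at 94.97 and 76.8 CPM and Bach2 at 47.4 and 32.3 CPM were not called. Tcf7 was seen in 36.4% of thinned cells without cytokine and 10.8% with IL-2v. In naive cells Tcf7, Klf2 and Id3 stood at 471, 883 and 122 CPM, above their levels without cytokine. Ccng2 stood at 29.9 CPM in naive cells, below its level without cytokine.

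Homing genes were lower in part. S1pr1, a target of KLF2 that lets T cells leave lymph nodes, stood at 165 CPM (160.1 to 171) without cytokine and 35.3 CPM (32.9 to 37.7) with IL-2v, a log2 difference of −2.20. The lymph node chemokine receptor Ccr7 (182 and 56.9 CPM), the inflammatory chemokine receptor Cxcr3 (102 and 31.9 CPM), the integrin Itga4 (59.4 and 21.8 CPM) and S1pr4 were also lower, which made 5 of 14 tested. Among the costimulatory genes, Cd27 (285 and 92.5 CPM), Cd28 (209 and 100.1 CPM) and Cd226 (76.9 and 37.3 CPM) were lower, whereas the TNF receptors Tnfrsf9, which encodes 4-1BB (83.2 and 234 CPM), and Tnfrsf4, which encodes OX40 (40.5 and 114 CPM), were higher, of 11 tested. Of 24 tested genes of the T cell receptor complex and its proximal signalling none reached 2-fold over all cells with library totals. The lowest was −0.997 and the median −0.43, or −0.61 with TMM scaling. Within cells without a Mki67 or Top2a UMI 2 were lower, and within cells with such a UMI 1 was. Trbc2, the constant segment of the receptor's beta chain, stood at 2024 and 1212 CPM and Cd3g at 822 and 473 CPM. Counted per thinned cell, that list had a median of 21 UMIs without and 15 with IL-2v. The 8 T cell markers used to check the cell label summed to 6374 and 4130 CPM.

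The lowest log2 difference by the naming rule was that of Cd7, a surface protein of T cells encoded at chr11:121036747-121039418, which stood at 78.6 CPM (74.9 to 82.3) without cytokine and 6.35 CPM (5.38 to 7.45) with IL-2v, a log2 difference of −3.44. The ARF-like gene Arl5c (146 and 20.7 CPM), the long RNA gene Gm26740 (99.7 and 20.7 CPM), Ypel3 (159 and 36.8 CPM), the ubiquitin ligase adaptor Klhl24 (60.4 and 13.5 CPM) and Tmem71 (87.1 and 25.1 CPM) completed the genes named on the lower side outside the lists. By share of thinned cells, AW112010 (78.0% and 50.9%), Itm2b (64.4% and 38.3%), Cd27 (42.9% and 17.0%) and Ighm (69.3% and 43.4%) had the largest differences on the lower side, beside Tcf7. Ighm is the heavy chain gene of IgM. Of the B cell markers, Cd79b was seen in 6.46% and 4.30% of cells, Cd79a in 0.247% and 0.145% and Ebf1 in 0.180% and 0.0623%, without and then with IL-2v, and their part in the Ighm difference was not tested. On the higher side, Gm17767 (13.1 and 111 CPM) and AA467197 (13.8 and 83.1 CPM) had no place in the lists.

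Effector genes gave a mixed picture, and the shares over all tested genes were 7.83% higher and 1.75% lower. Of 17 listed granule and death ligand genes 8 were tested and 1 was called, Gzmb, which encodes granzyme B. Its level was 642 CPM (632 to 653) without cytokine and 1544 CPM (1529 to 1560.4) with IL-2v, a log2 difference of 1.26. The 9 listed genes below the filter, which were not tested, included the perforin gene Prf1 and the death ligands Fasl and Tnfsf10. Gzma stood at 59.7 and 33.2 CPM and Nkg7 at 471 and 563 CPM. Of 19 transcription factors of effector and activated cells, Zbtb32 (36.4 and 164 CPM), Eomes (7.96 and 21.1 CPM), Batf3 (24.8 and 61.1 CPM), Irf4 (39.9 and 93.0 CPM) and Id2 (74.8 and 151 CPM) were higher and Ikzf2, which encodes Helios (147 and 41.7 CPM), was lower. Tbx21, which encodes T-bet, stood at 20.9 and 19.6 CPM and Prdm1, which encodes BLIMP-1, at 24.5 and 40.6 CPM. Of 7 cytokines tested among 22, Lta, Tnf (6.83 and 27.9 CPM) and Tgfb1 (128 and 263 CPM) were higher and the chemokine Ccl5 (177 and 79.1 CPM) lower; Lta and Tnf passed the filter through the IL-2v library alone. Of 6 inhibitory receptors tested among 16, Ctla4 was lower, at 358 CPM (349.8 to 366) without cytokine and 147 CPM (142 to 152) with IL-2v, a log2 difference of −1.28. Lag3 stood at 84.9 and 95.9 CPM, and Pdcd1, Havcr2 and Tigit were among those below the filter and not tested. The metallothioneins, which bind zinc, and the zinc importers went opposite ways. Mt1 stood at 265 CPM (259 to 272) without cytokine and 31.1 CPM (28.9 to 33.4) with IL-2v, a log2 difference of −3.05, and Mt2 at 53.5 and 7.62 CPM; Gm45774, annotated on the other strand, covers 73.5% of the exons of Mt2. The importers Slc39a10 (8.67 and 58.3 CPM) and Slc39a6 (23.8 and 57.3 CPM) were higher.

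The same genes were then read in the other day 3 libraries at 50 IU/mL IL-2, 50 IU/mL IL-15 and 5 IU/mL IL-2v. The treatment labels of the IL-2 and IL-15 libraries name other interleukins than their titles, and the titles were followed. These comparisons share the library without cytokine, so they are set side by side and not counted against each other. Against no cytokine, 389 of 6030 genes were higher with IL-2 (6.45%) and 165 lower (2.74%), 47 of 5737 were higher with IL-15 (0.819%) and 15 lower (0.261%), and 12 of 5678 were higher with low-dose IL-2v (0.211%) and 4 lower (0.0704%). Cdk6 stood at 336 CPM with IL-2, 95.8 with IL-15 and 97.5 with low-dose IL-2v. Bcl2 stood at 557, 345 and 452 CPM in the same order, the last beside 481 CPM at 50 IU/mL IL-2v. At 5 IU/mL of IL-2 and IL-15 it stood at 133 and 139 CPM. Slc7a5 stood at 186, 93.7 and 70.7 CPM, Tcf7 at 50.5, 197 and 164, and Cd7 at 21.4, 69.3 and 43.1. Over the same 15 STAT5 targets as above, whether or not they reached 20 CPM, the median log2 difference from no cytokine was 1.94, 0.85 and 0.65. Over the 47 ribosome biogenesis genes it was 0.84, 0.74 and 0.50. The share of cells with a Mki67 or Top2a UMI was 62.2% with IL-2 (60.5 to 63.9) and 48.8% with IL-15 (47.3 to 50.4). It was 57.7% with low-dose IL-2v (56.2 to 59.2) and 78.8% at 50 IU/mL IL-2v (77.5 to 79.9). Cells are not replicates, and these intervals cover counting error only.

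**Figure D5:**
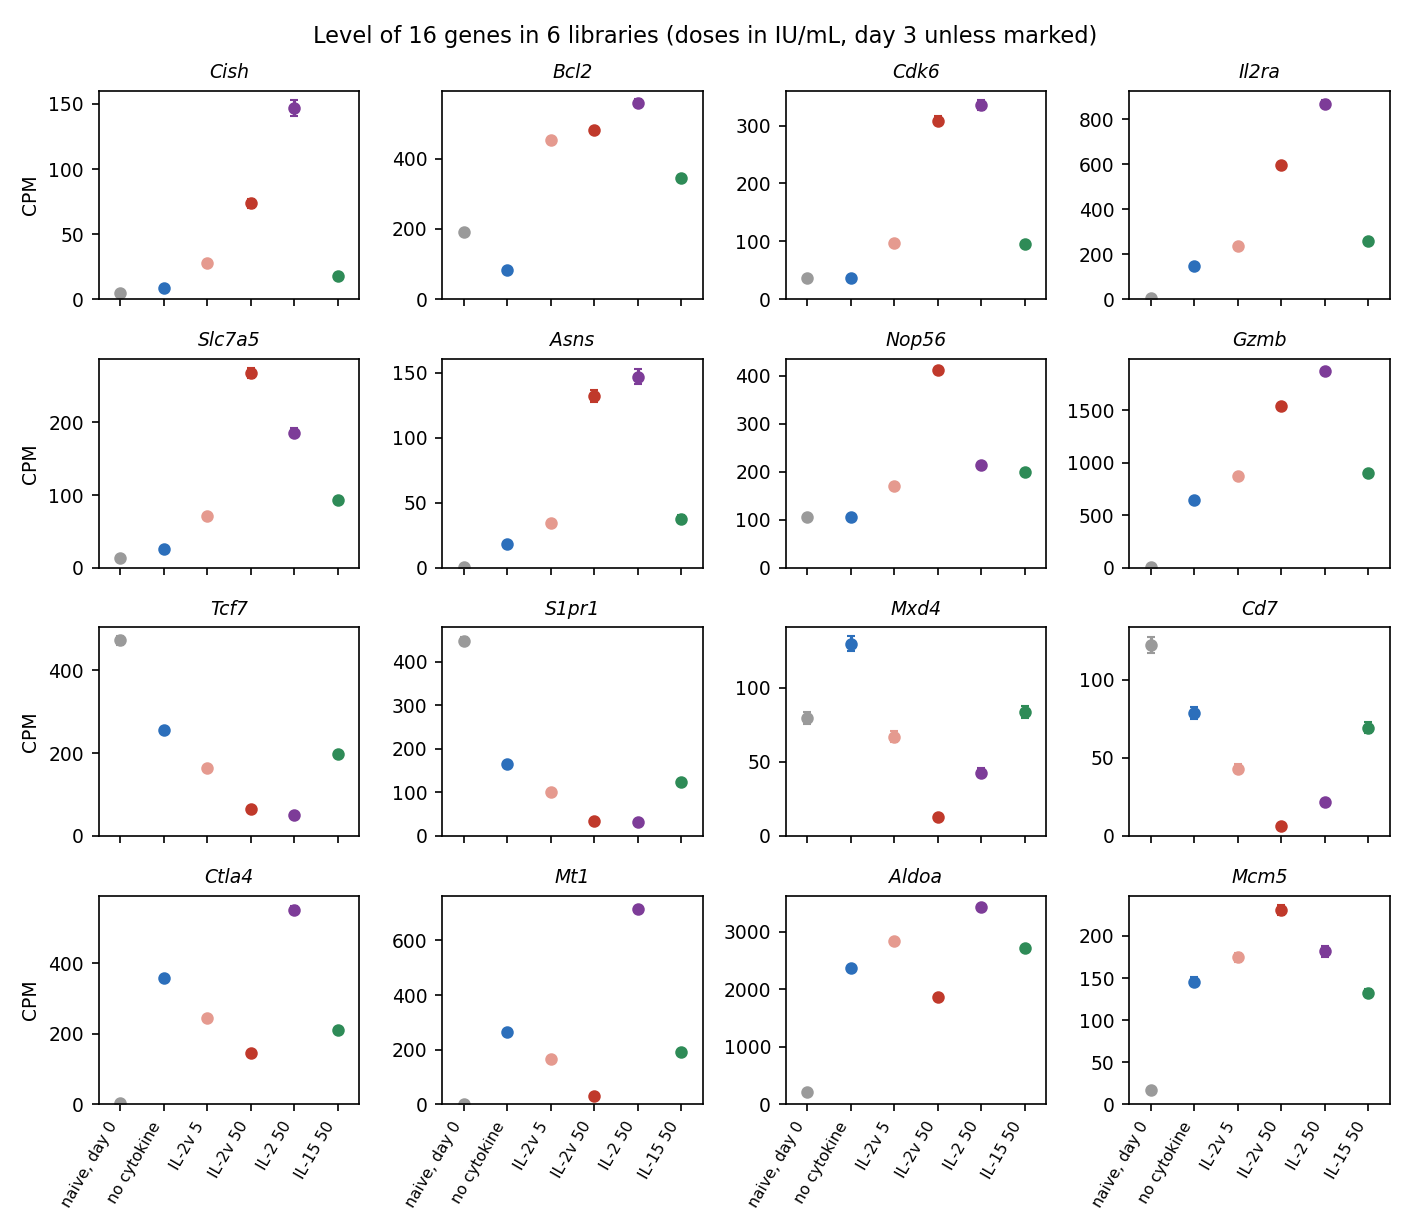
Level (vertical axis, CPM, from 0) of 16 genes in 6 libraries, with exact 95% Poisson intervals that are often smaller than the points. Tcf7, S1pr1 and Cd7 are highest in naive cells and below their level without cytokine at 50 IU/mL IL-2v; Ctla4, Mt1 and Aldoa are lower with 50 IU/mL IL-2v than without cytokine and highest with IL-2.

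Set directly against 50 IU/mL IL-2, the library with 50 IU/mL IL-2v had 75 of 6152 genes at least 2-fold higher (1.22%) and 129 lower (2.1%). Of 29 tested glycolysis and hypoxia-response genes 13 were lower with IL-2v and none higher, with a median of −0.90: Slc2a3, a glucose transporter, stood at 71.0 CPM with IL-2v and 284 with IL-2, and Ndrg1, a gene raised in hypoxia, at 19.4 and 151. Of 27 interferon-stimulated genes 14 were higher with IL-2v and none lower (median 1.07), with Iigp1 at 72.1 and 17.4 CPM and Gbp2 at 98.4 and 28.5. Against no cytokine, the interferon list had a median of −0.19 with IL-2v and −1.21 with IL-2, over 28 and 27 tested genes. Of 12 memory and naive surface genes 5 were higher and 1 lower (median 0.66), and of 13 AP-1, immediate early and ERK feedback genes 5 were lower (median −0.28). Of 12 costimulatory genes 6 were lower with IL-2v, including Tnfrsf4 at 114 and 499 CPM. Mt1 stood at 31.1 and 714 CPM, on either side of its 265 CPM without cytokine, as did Ctla4, at 147 and 552. The stress-induced chaperone gene Hspa1a stood at 0.0847 CPM with IL-2v, 0.135 without cytokine and 65.8 with IL-2; its part in the other differences from IL-2 was not tested. In the growth lists, 2 of 47 ribosome biogenesis genes were higher (median 0.53), 0 of 55 S phase genes were called (median 0.38), and 1 of 15 STAT5 targets was lower (median −0.13).

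Against 50 IU/mL IL-15, 108 of 6072 genes were at least 2-fold higher with IL-2v (1.78%) and 69 lower (1.14%). The higher ones included 7 of 15 STAT5 targets (median 0.83) and 8 of 17 genes of the ATF4 list (median 0.996), and the lower ones 5 of 17 quiescence genes (median −0.81). Lta stood at 69.4 CPM against 10.3 in the IL-15 library, and Mxd4 at 12.9 and 83.5. Lif, which encodes a cytokine of the IL-6 family, gave the highest log2 difference, at 24.1 and 1.42 CPM, and was chosen after its values were seen. Hist1h2ap, a histone gene, stood at 1096 and 184 CPM, both below its 1758 CPM without cytokine.

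A second pair of libraries, on day 5, shares no library with the first. There 1350 of 6389 genes (21.1%) were higher with 50 IU/mL IL-2v than without cytokine and 353 (5.53%) lower. Of the 475 genes higher on day 3, 280 were also called higher on day 5, which is 58.9% of the day 3 list and 20.7% of the day 5 list, and none was called lower. Of the 106 lower genes 51 were called lower on day 5, 48.1% of the day 3 list and 14.4% of the day 5 list, and 6 were called higher. Of the day 3 genes tested on day 5, 423 of 433 higher ones and 87 of 101 lower ones kept their sign; on day 5, 64.5% of all 6389 tested genes had a log2 difference above 0. Slc7a5 differed by 5.03 on day 5, Bcl2 by 3.42, Cdk6 by 3.71 and Tcf7 by −2.59. Ribosome biogenesis had a median of 0.85 on day 5 over 43 tested genes, whereas glycolysis had 2.39, with 28 of 29 tested genes higher, and the G2 and mitosis list 2.86, with 51 of 54. The share of cells with a Mki67 or Top2a UMI on day 5 was 7.91% without cytokine (7.24 to 8.62) and 60.2% with IL-2v (58.8 to 61.6).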

How the data were processed

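Single-cell RNA of cultured mouse OT1 CD8 T cells was deposited by the authors as raw UMI counts, whole numbers per gene symbol and cell barcode in 1 table per library. Per the submitters' processing notes, Cell Ranger, Seurat 4.0.1 and Seurat 3.0.2 and the build mm10 were used; versions of the annotation, the counting settings and any removal of doublets are not given in the sources used here, and no doublets were called here. Barcodes below 1000 UMIs or 500 genes, or above 10% mitochondrial UMIs, were dropped, which removed 1 cell of the pair. Counts were summed over cells, scaled to CPM by the library total, and compared as log2(CPM + 1). Genes with at least 20 CPM in either library were tested, and those 2-fold or more apart called. With 1 library per condition no count model was fitted. Summed depth was 23617485 and 22249358 UMIs. Shares used cells thinned to 2000 UMIs, without the 273 (IL-2v) and 212 (no cytokine) cells below that; cycling cells had at least 1 UMI of Mki67 or Top2a. Uncertain genes were found by 31-base words shared in the last 500 exonic bases and by exon overlap in GENCODE vM21. Promoters came from RefSeq (GRCm38.p6). Named were 15 genes from each end of the log2 differences, if 50 CPM was reached in 1 of the libraries, the 5 with the largest change of share on each side, and members of the lists. The groups, members, lists and tests were chosen with earlier results of these data known. Alternatives were cell filters, scalings, thinning, the pseudocount, the expression filter and cell cycle classes. Python 3.11.15 with numpy 2.4.6, scipy 1.17.1 and pandas 2.3.3 was used, and the code was tested on simulated data.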

Additional observations from a re-analysis of the deposited data

Results flagged for a closer look

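Of the genes at least 2-fold lower with 50 IU/mL IL-2v on day 3, 101 were tested on day 5. Of these, 6 were at least 2-fold higher with it on day 5, against 21.1% of all genes tested that day. The 6 are described because of these opposite calls, and the difference between the days was not tested. Gsn, which encodes the actin-severing protein gelsolin, had log2 differences of −1.003 and 2.57 on days 3 and 5. Its levels were 118 CPM without cytokine and 58.6 with IL-2v on day 3, and 24.6 and 151 on day 5. The hypoxia-induced genes Hilpda and Ankrd37 had −1.18 and 1.38, and −2.02 and 2.16. Dap had −1.33 and 1.13, at 243 and 96.0 CPM on day 3 and 109 and 239 on day 5. Dnaaf5 had −1.30 and 1.71, and Gm16754 had −1.29 and 3.15. In all 6 genes the level without cytokine was lower on day 5 than on day 3, and the level with IL-2v was higher, as in Ankrd37, at 25.3 and 13.05 CPM without cytokine and 5.46 and 61.7 with IL-2v. No group held the 4 samples that a check for a sample far from the others needs.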

How the results depend on the processing

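No paired analysis was possible because each condition has 1 library, and for the same reason no library could be left out. The counts of higher and lower genes (475 and 106) were 295 and 201 with TMM scaling, 996 and 229 in cells lacking Mki67 and Top2a UMIs, 266 and 57 with a pseudocount of 10, 763 and 246 with no expression filter, and 278 and 63 with a filter at 50 CPM. The lower count was 212 when ribosomal protein and mitochondrial genes were left out of the totals, and the higher count 427. All other alternatives left both counts within 1.5 times. The 295 and 201 genes include 295 of the 475 higher and 106 of the 106 lower ones.

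The share of cells with a Mki67 or Top2a UMI with IL-2v (78.8%) and without cytokine (51.2%) became 81.2% and 47.1% with at most 5% mitochondrial UMIs, 61.6% and 40.0% with thinning to 1000 UMIs, 86.9% and 59.96% with no thinning, and 97.4% and 80.6% by at least 3 UMIs of the G2 and mitosis list. It was 48.5% without cytokine when cells above 2 times the median UMIs were left out. The share was higher with IL-2v under each.

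Of 555 log2 differences of the 37 named genes under 15 alternatives none changed sign where the gene was called; Itm2b fell under 2-fold in cells with a Mki67 or Top2a UMI. Of 14 lists with a median of at least 0.5 in size, 13 kept their sign under each alternative that gave a value; the IFITM list had no tested gene with a filter at 50 CPM. The metallothionein and zinc list, with 0.70 over 5 genes, had −0.89 with TMM scaling, −0.74 with cells thinned to 2000 UMIs, −0.49 in cells lacking Mki67 and Top2a UMIs and −0.71 with a filter at 50 CPM, each over 4 genes, since Mtf1 fell below the filter. The planned rule for other lineages left out 13.4% and 13.9% of cells, through 4 markers seen in over 1% of cells (Cd79b, Cst3, H2-Ab1, Cd74); without those markers, an alternative chosen after seeing the data, the rule left out 0.374% and 0.180% and gave 475 and 107 genes. The class of cells with neither UMI is the smaller one, with 631 and 1784 cells.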

Other observations

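Of 4 interferon-induced transmembrane genes, 2 were tested and both were higher with 50 IU/mL IL-2v. Ifitm1 stood at 7.60 CPM without cytokine and 33.2 CPM with IL-2v and Ifitm2 at 20.4 CPM without cytokine and 43.5 CPM with IL-2v; Ifitm1 passed the filter through the IL-2v library alone. Of 28 interferon-stimulated genes, Isg20 (7.24 and 29.7 CPM) and Gbp7 (87.3 and 206 CPM) were higher and Ifi203 (125 and 59.1 CPM) lower, each without and then with IL-2v. Among genes that respond to p53, Aen (10.7 and 46.7 CPM), Sesn2 (4.63 and 26.2 CPM) and Cdkn1a were higher and Fas (37.7 and 14.0 CPM) and Trp53inp1 (84.0 and 33.4 CPM) lower, of 13 tested among 20; all 3 higher ones were below 20 CPM without cytokine. Over all genes, 7.83% were higher and 1.75% lower. Sesn2 is also an ATF4 target and Cdkn1a stood in the cyclin list, so these counts overlap.

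Beyond the larger lists, Mat2a, which makes the methyl donor S-adenosylmethionine, stood at 71.4 CPM without cytokine and 217 CPM with IL-2v, and at 86.4 with 50 IU/mL IL-2; it was chosen after its values were seen. Lrrc32, which encodes GARP, a docking protein for latent TGF-beta, stood at 4 CPM without cytokine and 24.1 CPM with IL-2v. The killer receptor gene Klrd1, which encodes CD94, stood at 357 CPM without cytokine and 136 CPM with IL-2v, while its relative Klrk1, which encodes NKG2D, stood at 121 CPM without cytokine and 140.1 CPM with IL-2v. The serpin Serpina3g stood at 9.80 CPM without cytokine and 32.3 CPM with IL-2v, and the MAP kinase phosphatase Dusp6, induced by ERK signalling, at 19.3 CPM without cytokine and 50.9 CPM with IL-2v. All 8 tested GIMAP genes had a log2 difference below 0, from −0.69 to −0.01, and none was called; TMM scaling moved their median from −0.42 to −0.60. Several lists held no gene called in either direction: 37 proteasome subunits (median 0.29), 18 genes of MHC class I presentation (−0.11), 19 clustered histone genes (−0.20), 13 genes of DNA methylation and Polycomb complexes (0.43) and 13 mitochondrially encoded genes (−0.14). Of 14 other cytokine receptors 1, Il12rb1, was called, near the share over all genes. It stood at 14.7 CPM without cytokine and 32.7 CPM with IL-2v, and passed the filter through the IL-2v library alone. Il7r, the receptor of IL-7, stood at 137 CPM without cytokine and 115 CPM with IL-2v.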
